A study of Mus musculus with 1078 samples.

Results

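Foxp3-negative T cells of deposited cluster 0 made up most of the T cells sorted from mouse gliomas here. Members were the cells that the authors labelled as T cells and placed in their cluster 0, that lay on the 4 plates of the CD3-positive sort, and in which Foxp3, the master transcription factor of regulatory T cells, was at 0. They were 62.1% of the 327 T cells on these plates (exact 95% interval 56.6 to 67.4), which held 338 of the 1078 cells of the series, and numbered 69 under losartan, 20 under anti-PD1, 63 under losartan+anti-PD1 and 51 in control. The members were thus chosen by measured values, the Foxp3 level and a clustering of the genes of these same cells, so contrasts with other T cells are descriptions without a test.

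GL261, a mouse glioma line, was grown in the brains of young adult C57Bl/6 mice that received losartan, anti-PD1, losartan+anti-PD1, or PBS with IgG as the control. Losartan blocks the type 1 angiotensin receptor, and anti-PD1 is an antibody against the checkpoint receptor PD1 on T cells. Live CD45+CD3+ cells were sorted singly into plates and read by Smart-seq2, a full-length RNA method, with 1 plate per treatment. No label ties a cell to an animal, so each treatment counted as 1 sample, treatment and plate cannot be told apart, and no p-value is given. Intervals on shares are exact binomial (Clopper-Pearson) and cover counting error only, not the spread between mice. The upper limit given beside a count of 0 cells is that of 3 cells of the total, not the exact bound.

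CD4 T cells read peptides on MHC class II and help other cells through CD40 ligand and cytokines, whereas CD8 T cells read MHC class I and kill through granzymes, perforin and Fas ligand. A T cell that has met its antigen also makes checkpoint receptors such as LAG3 and TIGIT, costimulatory receptors such as OX40, and chemokines such as CCL3 and CCL4. Naive and resting memory T cells carry TCF7 and LEF1 as transcription factors and CCR7 and S1PR1 as homing receptors. Cells of all these kinds can enter a brain tumour.

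Levels are transcripts per 100000 in a cell (TP100K), taken from deposited TPM values, and a cell was counted as positive for a gene at any value above 0. Read depth is unknown, since TPM keeps none, and the number of detected genes per cell is given in its place. The members had a median of 2058 detected genes (1068 to 6071), with plate medians of 1991 under losartan, 1812 under anti-PD1, 2363 under losartan+anti-PD1 and 2167 in control. The comparison cells, T cells of deposited cluster 4 (92 cells) and Foxp3-positive T cells of cluster 0 (32 cells), had medians of 2055.5 and 1986. Cluster 4 lay mainly on 1 plate, with 4 cells under losartan, 56 under anti-PD1, 12 under losartan+anti-PD1 and 20 in control.

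The members' share of the T cells differed widely between plates. They were 69 of 76 T cells under losartan (90.8%), 20 of 88 under anti-PD1 (22.7%, 14.5 to 32.9), 63 of 84 under losartan+anti-PD1 (75%) and 51 of 79 in control (64.6%, 53 to 75). The share was lowest under anti-PD1 and highest under losartan. Values of the members on the anti-PD1 plate rest on 20 cells.

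The Foxp3 cut (gene on chromosome X, 7573644 to 7595245, GRCm38) separated zero from any value. Members were at 0 by definition, and Foxp3-positive T cells had a median of 82.8 TP100K, with 2 of the 32 at or below 1 and the lowest at 0.137. A single zero in a Smart-seq2 cell does not show that the gene is silent. Genes of the regulatory programme other than Foxp3 were present in many members: 79 of them (38.9%, 32.2 to 46) had at least 2 of Il2ra, Ctla4 and Ikzf2, against 14 of 92 cluster 4 cells (15.2%, 8.58 to 24.2) and 32 of 32 Foxp3-positive cells. All 3 genes were present in 11 members (5.42%). By plate, the members with at least 2 were 24 of 69 under losartan, 6 of 20 under anti-PD1, 26 of 63 under losartan+anti-PD1 and 23 of 51 in control.

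By their marker genes these were T cells with a CD4 majority, but not each marker set them apart from cluster 4. The CD3 chains that carry the T cell receptor signal were seen in most members: Cd3e in 84.7%, Cd3g in 83.7% and Cd3d in 81.8%. Cd4, the MHC class II coreceptor, was present in 72.9% of members (66.2 to 78.9) and in 2 of 92 cluster 4 cells (2.17%). Its mean was 64.8 TP100K under losartan, 28.2 under anti-PD1, 73.2 under losartan+anti-PD1 and 64.2 in control. Cd40lg, the helper signal to B cells and dendritic cells, averaged 13.7, 10.5, 15.5 and 13.2 TP100K on the same 4 plates in that order, a narrow range, and was present in 69 members (34%) and 4 of 92 cluster 4 cells.

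Ltb, Il7r and Cd2 did not separate the members from cluster 4. Lymphotoxin beta (Ltb) averaged 73.9 TP100K in members and 123.6 in cluster 4, a log2 ratio of -0.74 that was 0.19 on the anti-PD1 plate, -0.13 on the losartan+anti-PD1 plate and -0.92 in control. The interleukin 7 receptor (Il7r), needed for survival of resting T cells, averaged 30.6 TP100K in members and 24.9 in cluster 4. Its log2 ratio was -0.58 on the anti-PD1 plate, 2.32 on the losartan+anti-PD1 plate and 1.39 in control, so the pooled 0.29 joined plates of opposite direction. Without the anti-PD1 plate the pooled Il7r ratio was 1.99. The adhesion receptor Cd2 averaged 71.9 TP100K in members and 64.2 in cluster 4, and its direction also differed between plates, with log2 ratios of -0.53, 0.53 and 0.55. Without the anti-PD1 plate the pooled ratios were -0.10 for Ltb and 0.75 for Cd2.

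Coreceptor genes split the members into 4 classes. A CD4 class, with Cd4 above 0 and neither Cd8a nor Cd8b1, held 51.7% of members (44.6 to 58.8). A CD8 class, with Cd8a or Cd8b1 and no Cd4, held 22 (10.8%, 6.92 to 15.9). Both kinds of coreceptor were present in 43 cells (21.2%) and neither in 33 (16.3%). Cluster 4 held 84 CD8-class cells of 92, and no CD4-class cell. The classes differed in detected genes, with medians of 2245 in the CD4 class, 1605.5 in the CD8 class, 2573 with both and 1472 with neither.

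The CD4 class was the largest on each plate except the control plate, where cells with both coreceptors were slightly more numerous. It held 41 of 69 members under losartan (59.4%), 8 of 20 under anti-PD1, 37 of 63 under losartan+anti-PD1 (58.7%) and 19 of 51 in control (37.3%). Cells with both coreceptors were 8, 2, 13 and 20 on those plates, and the CD8 class 4, 4, 8 and 6.

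**Figure D1:**
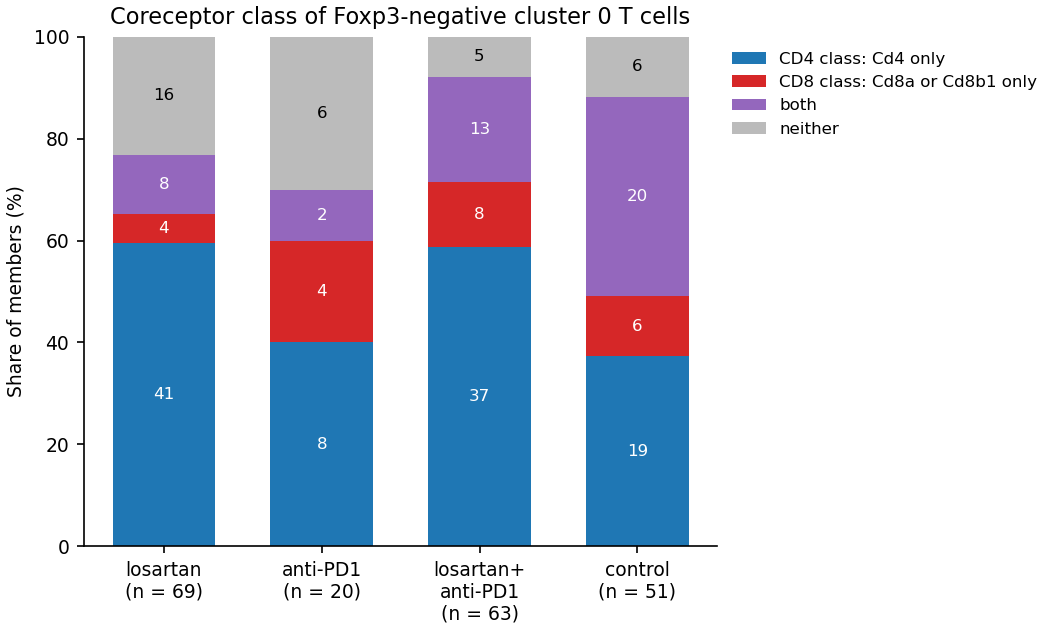
Share of the members in each coreceptor class (vertical axis, percent of members on the plate) for the 4 treatment plates, with cell counts written in the bars. The CD4 class reaches 59.4% under losartan and 58.7% under losartan+anti-PD1, against 37.3% in control, where 20 of 51 members had both coreceptors.

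Most of the cells with both coreceptors carried only traces of Cd8. Of the 65 members with Cd8a or Cd8b1 above 0, 33 had at most 1 TP100K of each. In the cells with both, Cd4 (chromosome 6, 124864692 to 124888221, minus strand) averaged 85.6 TP100K, near the 88 of the CD4 class, while the median of Cd8b1 was 0.482 and 6 of 43 exceeded 10. With a cut of 1 TP100K, 65% of members were in the CD4 class, 20 cells were in the CD8 class, 12 had both and 39 neither. Of this wider CD4 class, 46 cells were under losartan, 9 under anti-PD1, 46 under losartan+anti-PD1 and 31 in control.

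Cells of the CD8 class held Cd8b1 at high levels on 3 of the plates. Cd8b1 (chromosome 6, 71322788 to 71337494), the beta chain of the coreceptor, averaged 136.2 TP100K in the class under anti-PD1, 126.4 under losartan+anti-PD1 and 107.8 in control, and exceeded 10 in 14 of its 22 cells. Under losartan the 4 cells of the class averaged 0.388. The CD8-class cells under losartan thus held only traces, and the cut of 1 TP100K left 0 CD8-class members there, against 3, 8 and 9 on the other plates.

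Against cluster 4, the members differed first in coreceptor, costimulatory and effector genes. Of the 3316 genes that reached a 25% share of positive cells on either side, 4.86% were at least 2-fold higher in the members and 2.71% at least 2-fold lower. These ratios are of mean TP100K plus a pseudocount of 1. A gene was named when it lay among the 10 highest or 10 lowest with the same direction on each plate that had 5 or more cells in each group (anti-PD1, losartan+anti-PD1 and control), or stood on one of 25 gene lists. A gene seen in few cells of one side passed the filter only through the side where it was high, so it had to differ. Higher genes made up 64.1% of those past 2-fold, and 79.8% when each cell was scaled by its 75th percentile instead. That scaling moved the median log2 ratio of all genes to 0.23, against 0.09 before.

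Tnfrsf4, which encodes the costimulatory receptor OX40, had the highest log2 ratio, 5.79. It averaged 53.4 TP100K in members under losartan, 47.4 under anti-PD1, 59.5 under losartan+anti-PD1 and 72.6 in control, and was present in 54.2% of members (47.1 to 61.2). In cluster 4 it was present in 3 of 92 cells (3.26%) with a mean of 0.0931 TP100K. All 4 plates of members thus lay far above cluster 4. The mean of Tnfrsf4 was higher still in the Foxp3-positive T cells of cluster 0, with up to 1024 TP100K in a cell. Its high level was therefore not particular to the members. Maf, a transcription factor of helper cells that make interleukins 10 and 21, was present in 91 members (44.8%) and 1 of 92 cluster 4 cells, with a log2 ratio of 3.41. The CD30 ligand gene Tnfsf8 averaged 9.86 TP100K in members and 0.048 in cluster 4. The tetraspanin Cd9 averaged 20.1 TP100K in members and 1.34 in cluster 4. The list of highest genes ended with Cd40lg (3.03), the pseudokinase Trib2 (2.88), Twsg1 (2.78), Folr4 (2.60), the folate receptor 4 of regulatory and anergic T cells, and lymphotoxin alpha (Lta, 2.59). The anti-PD1 plate, which held most of cluster 4, decided part of this order: without it Folr4 had a log2 ratio of 1.63.

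Inhibitory and costimulatory receptor genes were mostly higher in the members. Of 7 inhibitory receptor genes that passed the filter, 6 had higher means in members, 5 of them at least 2-fold, with a median log2 ratio of 1.82 beside 0.09 over all genes. Of 9 costimulatory genes, 8 were higher, 6 at least 2-fold, with a median of 1.64. Lag3, a checkpoint receptor that binds MHC class II, averaged 103.7 TP100K in members and 22.97 in cluster 4 (log2 ratio 2.13). Tigit, which competes for CD155, averaged 110.5 TP100K in members and 23.8 in cluster 4 (2.17). Neither gap was seen on the anti-PD1 plate, where the log2 ratio was 0.00 for Lag3 and 0.07 for Tigit. Ctla4 averaged 72.4 TP100K in members and 19.8 in cluster 4, and its ratio was above 0 on each of the 3 plates (1.04, 0.64 and 2.04). The costimulatory receptor Icos averaged 47.4 TP100K in members and 14.5 in cluster 4, and again its 3 plate ratios were all above 0 (0.84, 0.89 and 1.56). The programmed death receptor Pdcd1 averaged 62.3 TP100K in members and 40.9 in cluster 4, a log2 ratio of 0.60.

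Killer-cell genes were mostly lower in the members. Of 15 cytotoxic effector genes, 12 were lower, 9 of them at least 2-fold, with a median log2 ratio of -1.38. The chemokine Ccl5, a marker of effector and memory CD8 cells, averaged 176.6 TP100K in members under losartan, 134.7 under anti-PD1, 334 under losartan+anti-PD1 and 357 in control. It averaged 1522 TP100K in cluster 4, where 82 of 92 cells (89.1%) had it, against 62 of the members (30.5%). Cathepsin W (Ctsw), a protease of killer cells, averaged 29.2 TP100K in members and 166.8 in cluster 4, with ratios of -1.83, -2.51 and -2.02 on the anti-PD1, losartan+anti-PD1 and control plates. Ly6c2, a surface protein of memory CD8 cells, averaged 28.6 TP100K in members and 436 in cluster 4. Granzyme K (Gzmk) was present in 11 members (5.42%) and 40 of 92 cluster 4 cells, and the activating receptor NKG2D (Klrk1) in 32 members (15.8%) and 64 of 92 cluster 4 cells. Granzyme B (Gzmb), the main serine protease of killer granules, averaged 17.7 TP100K in members under losartan, 41.2 under anti-PD1, 150.1 under losartan+anti-PD1 and 85.2 in control. In cluster 4 it averaged 48.4 TP100K under anti-PD1, 1070 under losartan+anti-PD1 and 412 in control, so the gap was narrowest on the anti-PD1 plate (log2 ratio -0.23) and wider on the others (-2.83 and -2.26). Without the anti-PD1 plate the pooled log2 ratio was -1.31 for Klrk1, against -2.95 with it. It was -3.26 for Ccl5, against -2.51, and -2.89 for Gzmb, against -1.78.

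Other effector genes did not share that direction on each plate. Ccl4, an inflammatory chemokine, had a log2 ratio of -3.74 on the anti-PD1 plate, 4.47 on the losartan+anti-PD1 plate and -0.43 in control. The granule gene Nkg7 had ratios of -3.50, 0.16 and -1.14 on the same plates. Interferon gamma (Ifng) averaged 45.5 TP100K in members and 21.5 in cluster 4, a log2 ratio of 1.05. Without the anti-PD1 plate the pooled ratio was 1.69 for Ifng and 1.67 for Ccl4, against 0.66 for Ccl4 with it.

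Genes of resting cells were mixed. Tcf7, the transcription factor of naive and memory-like cells, averaged 18.1 TP100K in members (69 cells) and 3.63 in cluster 4 (15 of 92 cells), with ratios of 3.36, 0.63 and 0.60 on the 3 plates. S1pr1, the receptor that lets T cells leave tissue, averaged 12.9 TP100K in members and 2.10 in cluster 4. Without the anti-PD1 plate the pooled log2 ratios were lower, at 1.23 for Tcf7, against 2.04, and 1.51 for S1pr1, against 2.17. Ccr7 was present in 45 members (22.2%) and 6 of 92 cluster 4 cells, below the 25% filter. Of 9 naive and memory genes, 6 were higher in members, with a median log2 ratio of 0.29, close to the 0.09 of all genes. The immediate early genes, which are switched on within minutes of stimulation and also by tissue dissociation, were higher in members for 10 of 14, with a median of 0.85. Among them, Junb averaged 472 TP100K in members and 195.4 in cluster 4, and Dusp1 220.5 in members and 74.1 in cluster 4 (log2 ratio 1.56, and 2.33 without the anti-PD1 plate).

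**Figure D2:**
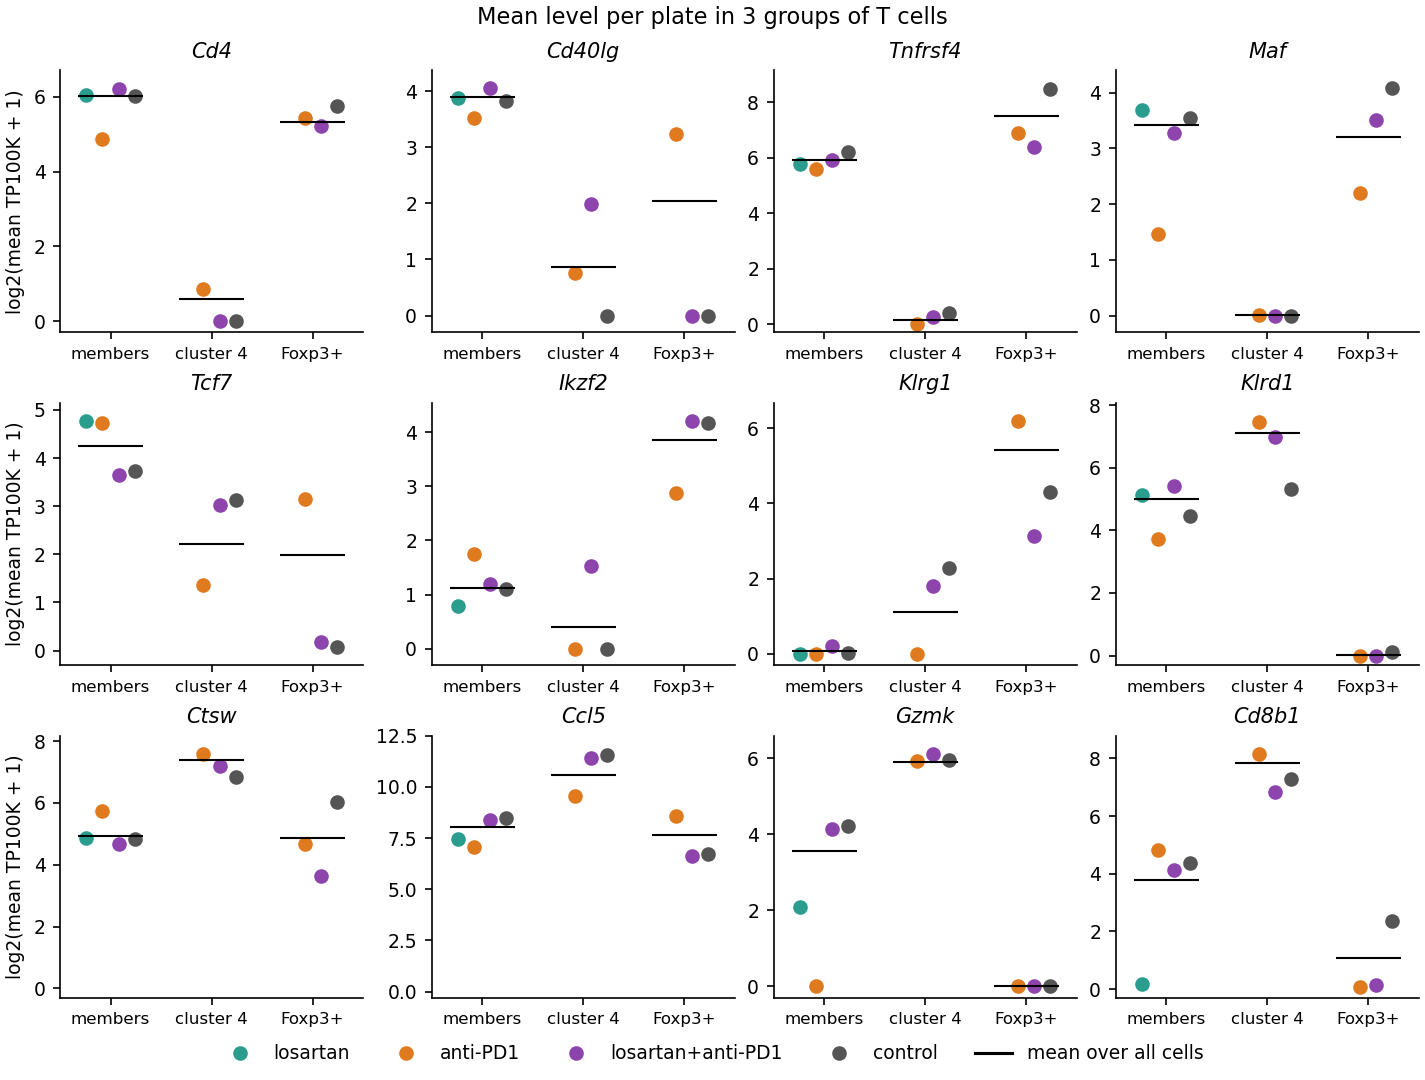
Mean level of 12 genes, as log2(mean TP100K + 1), in members, cluster 4 and Foxp3-positive T cells, with 1 point per plate that has 5 or more such cells and a black line at the mean over all cells. Tnfrsf4 points of the members lie between 47.4 and 72.6 TP100K on the linear scale, against a cluster 4 mean of 0.0931, and Ccl5 runs the other way. The Tnfrsf4 mean is higher in Foxp3-positive T cells than in members.

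Against the Foxp3-positive T cells, the members had lower levels of most regulatory genes and higher levels of several genes of conventional T cells. Of 3492 genes compared, 7.67% were at least 2-fold higher in members and 9.31% at least 2-fold lower. Higher genes were 45.2% of those past 2-fold, and 74.9% with 75th-percentile scaling, where the all-gene median moved to 0.22, against -0.03. Foxp3 was left out of the list of regulatory genes, since it chose the groups. The list was then lower for 11 of 12 genes, 9 of them at least 2-fold, with a median of -1.67. A gene seen in few members passed the filter only through the Foxp3-positive cells, so its share had to be lower in members. Ikzf2 and Lrrc32 were such genes, and the count and the median include them. Ikzf2, which encodes Helios, was present in 38 members (18.7%) and 30 of 32 Foxp3-positive cells (93.8%). The high-affinity interleukin 2 receptor gene Il2ra averaged 4.99 TP100K in members and 32.2 in Foxp3-positive cells, with ratios of -3.81, -1.48 and -1.72 on the anti-PD1, losartan+anti-PD1 and control plates. Tnfrsf18, which encodes GITR, averaged 54.4 TP100K in members and 255.9 in Foxp3-positive cells.

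Klrg1, Itgae and Lrrc32 passed the 25% filter only through the Foxp3-positive cells, where they were high. Klrg1, a receptor of differentiated effector and regulatory cells, was present in 2 members and 14 of 32 Foxp3-positive cells (43.8%), a log2 ratio of -5.36. The integrin Itgae, which binds E-cadherin, was present in 7 members and 13 of 32 Foxp3-positive cells, and Lrrc32, which docks latent TGF-beta, in 4 members and 11 of 32. In the other direction, the NK-type receptor Klrd1 averaged 31.2 TP100K in members (53 cells) and 0.0198 in Foxp3-positive cells (1 of 32), and passed only through the members. The survival gene Bcl2 averaged 15.2 TP100K in members and 0.274 in Foxp3-positive cells, with ratios of 3.53, 2.56 and 4.09 on the 3 plates. Themis, which tunes T cell receptor signals, averaged 12 TP100K in members and 0.717 in Foxp3-positive cells, with ratios of 2.86, 3.30 and 2.80. Pdcd1 was also higher in members, at 62.3 TP100K against 20.05 in Foxp3-positive cells, with nearly equal plate ratios of 1.91, 1.52 and 1.62. Gzmk was present in 11 members and is listed at 0 in the 32 Foxp3-positive cells.

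The 79 members with at least 2 of Il2ra, Ctla4 and Ikzf2 also had other activation genes more often. The costimulatory receptor 4-1BB (Tnfrsf9) was present in 63.3% of the 79 and 21% of the other members, OX40 (Tnfrsf4) in 83.5% and 35.5%, and Lag3 in 75.9% and 33.1%. Ccl4 was present in 48.1% of the 79 and 24.2% of the others, and interleukin 10 (Il10) in 17.7% and 6.45%. The higher shares were not confined to activation genes. Cd4 was present in 86.1% of the 79 and 64.5% of the others, Capg in 75.9% and 43.5%, and Nrp1 in 69.6% and 37.9%. Choosing cells by detection of 2 genes favours cells with more detected genes, and the part of this in the shares was not tested. Ikzf2, one of the 3 genes used, averaged 2.09 TP100K in the 79, against 13.4 in Foxp3-positive cells. Klrg1 was at 0 in each of the 79 and present in 2 of the others.

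Within the members, CD4-class cells were set against CD8-class cells as to the states they occupied. Cd4, Cd8a and Cd8b1 chose the classes and are no result here. Only losartan+anti-PD1 (37 and 8 cells) and control (19 and 6 cells) gave plate values. Of 3575 genes, 647 (18.1%) were at least 2-fold higher in the CD4 class and 320 (8.95%) at least 2-fold lower. The CD8 class had fewer detected genes per cell, as given above, and the part of this in the ratios was not tested.

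Inhibitory receptor and chemokine genes were mostly higher in the CD4 class. All 7 inhibitory receptor genes were higher in it, 6 at least 2-fold, with a median log2 ratio of 2.07 beside 0.11 over all genes. Lag3 (chromosome 6, 124904361 to 124911705, minus strand) averaged 135.1 TP100K in the CD4 class (64 cells, 61%) and 6.004 in the CD8 class (3 of 22 cells), with ratios of 5.91 under losartan+anti-PD1 and 5.80 in control. Ccl4 (chromosome 11, 83662584 to 83664683) averaged 492 TP100K in the CD4 class (39 cells, 37.1%) and 27.5 in the CD8 class (4 of 22), and its neighbour Ccl3 (chromosome 11, 83647844 to 83649355, minus strand) 233.9 in the CD4 class and 11.3 in the CD8 class. Tbx21, which encodes T-bet, the regulator of interferon gamma, was present in 30 CD4-class cells (28.6%) and 2 of 22 CD8-class cells, and Fas ligand (Fasl) averaged 20.1 TP100K in the CD4 class and 1.27 in the CD8 class. Cd9 was present in 47 CD4-class cells (44.8%) and the skin-homing receptor Ccr8 in 41 (39%). Each was present in 0 of 22 CD8-class cells, which allows a share of up to 13.6%. Cytotoxic genes went both ways, with 7 of 11 higher in the CD4 class, 6 at least 2-fold, and 4 lower, all 4 at least 2-fold (median 1.23). Immediate early genes were lower in the CD4 class for 11 of 14, with a median of -0.40.

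Genes of resting cells were mostly higher in the CD8 class. Lef1, a partner of TCF7 in naive cells, averaged 4.06 TP100K in the CD4 class and 24.5 in the CD8 class, with ratios of -2.31 under losartan+anti-PD1 and -3.28 in control. S1pr1 averaged 10.7 TP100K in the CD4 class and 31.04 in the CD8 class, and Klf2, which drives S1pr1, 5.30 in the CD4 class and 22.4 in the CD8 class. Of 12 naive and memory genes, 9 were lower in the CD4 class, 5 at least 2-fold, with a median of -0.60. Ccl5 and Ctsw kept the direction they had against cluster 4: Ccl5 averaged 124.9 TP100K in the CD4 class and 1029 in the CD8 class, and Ctsw 14.6 in the CD4 class and 76.4 in the CD8 class. The interferon-induced gene Ifit3 averaged 3.06 TP100K in the CD4 class and 41.7 in the CD8 class. Cd2 was higher in the CD4 class on both plates (2.01 and 2.06) and averaged 84.2 TP100K there, against 18.5 in the CD8 class.

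**Figure D3:**
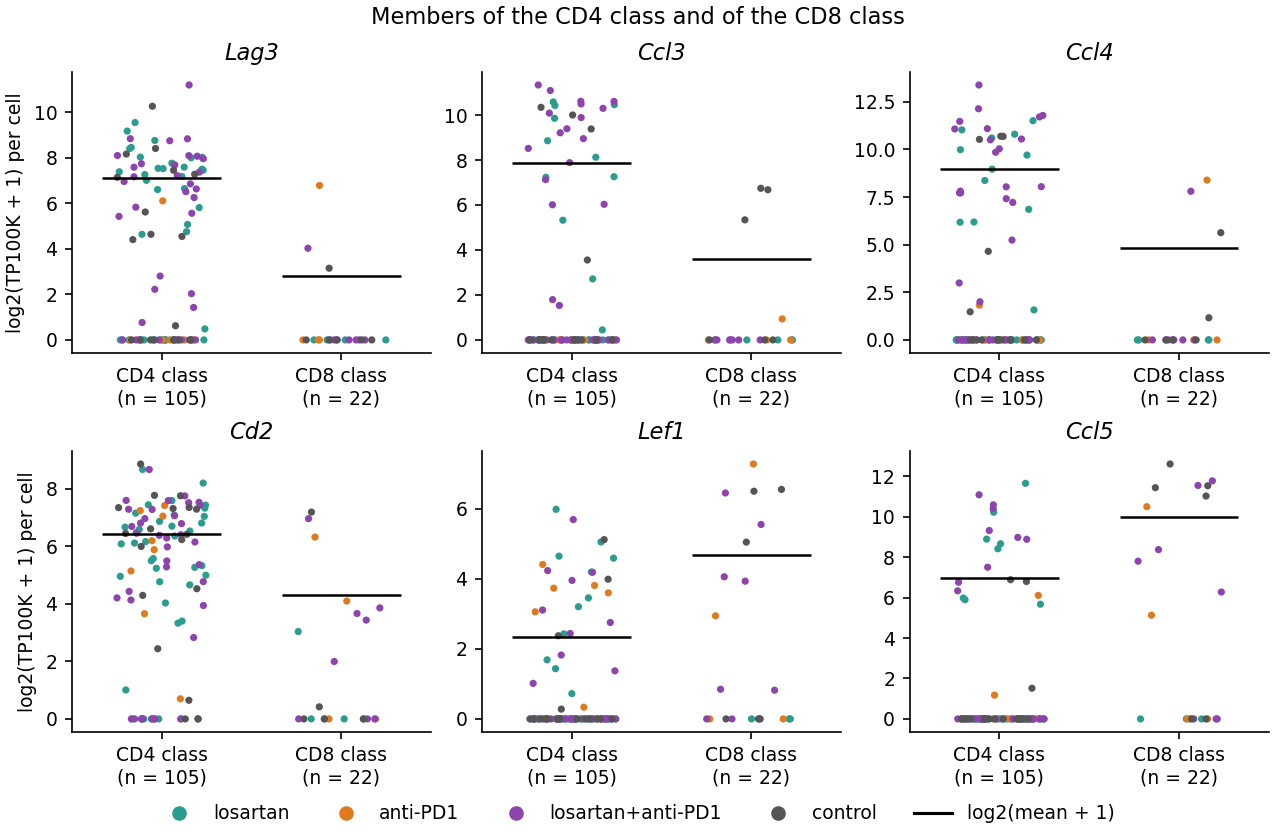
Level of 6 genes in each cell, as log2(TP100K + 1), in the CD4 class and the CD8 class of the members, with a line at log2(mean + 1). Lag3, Ccl3, Ccl4 and Cd2 have higher means in the CD4 class, and Lef1 and Ccl5 in the CD8 class, with many cells at 0 in each panel.

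Chemokine-producing and Tcf7-positive members shared few cells. Ccl4 was present in 68 members, of which 62 (91.2%) had Cd4, 59 (86.8%) Lag3, 48 (70.6%) Ccl3, 44 (64.7%) Ifng and 9 (13.2%) Tcf7. Of the members without Ccl4, 63.7% had Cd4, 31.1% Lag3, 6.67% Ccl3, 18.5% Ifng and 44.4% Tcf7. The Ccl4-positive cells also had more detected genes, with a median of 2482, against 1815 in those without, and the part of this in the shares was not tested. Ccr7 was present in 11.8% of the cells with Ccl4 and 27.4% of those without it. In the 69 members with Tcf7, Tbx21 was present in 4.35%, against 35.8% of the rest.

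Helper cytokine genes were sparse. Interleukin 21 (Il21), a cytokine of follicular and peripheral helper cells, was present in 26 members (12.8%) and 0 of 92 cluster 4 cells, which allows up to 3.26%. Of the 26, 25 had Cd4, 23 Lag3, 18 Ifng, 15 Ccl3 and 1 (3.85%) the follicle-homing receptor Cxcr5. Of the members without Il21, 69.5% had Cd4, 44.1% Lag3, 28.8% Ifng, 23.7% Ccl3 and 5.08% Cxcr5. Cxcr5 was thus rare with or without Il21. The Il21-positive cells had a median of 2571 detected genes, against 1966 in those without, and the part of this in the shares was not tested. Il10 was present in 22 members (10.8%) and 2 of 92 cluster 4 cells, and the decoy interleukin 1 receptor Il1r2 in 33 members (16.3%) and 0 of 92. Of the type 2 cytokines, Il4 was present in 0 members, which allows up to 1.48%, and Il13 in 2. Interleukin 2 (Il2) was present in 3 and Csf2 in 2. The division marker Mki67 was present in 27 members. With a cut of 1 TP100K, 13 members (6.40%) had 2 or more of Mki67, Top2a, Ccna2, Ccnb1, Ccnb2 and Cdk1.

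A small set of members carried Il17a RNA, and most of these lacked Cd4. This set was chosen after its values were seen. Il17a (chromosome 1, 20730905 to 20734496), the signature cytokine of type 17 cells, was present in 10 members (4.93%), 3 under losartan, 1 under anti-PD1, 1 under losartan+anti-PD1 and 5 in control, with a mean of 376 TP100K in these cells (1.75 to 1094). Cd4, Cd8a and Cd8b1 were all at 0 in 7 of the 10. The B cell and gamma delta T cell kinase Blk was present in 6 of the 10 and 3.11% of the other members, and the scavenger receptor Cd163l1 in 5 of the 10 and 5.18% of the others. Cd40lg was present in 0 of the 10, against 35.8% of the others. All 13 members with Cd163l1 above 10 TP100K had Cd4 at 0. Il17a above 1 was seen in 0 of the cluster 4 and Foxp3-positive cells. Genes of the T cell receptor constant regions and of the gamma delta receptor were looked for but not found by name among the 21765 genes. The receptor type of these cells is therefore not known. Sox13, the 1 gene of the gamma delta list that was found, was present in 3 of the 10 and 3.11% of the other members.

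**Figure D4:**
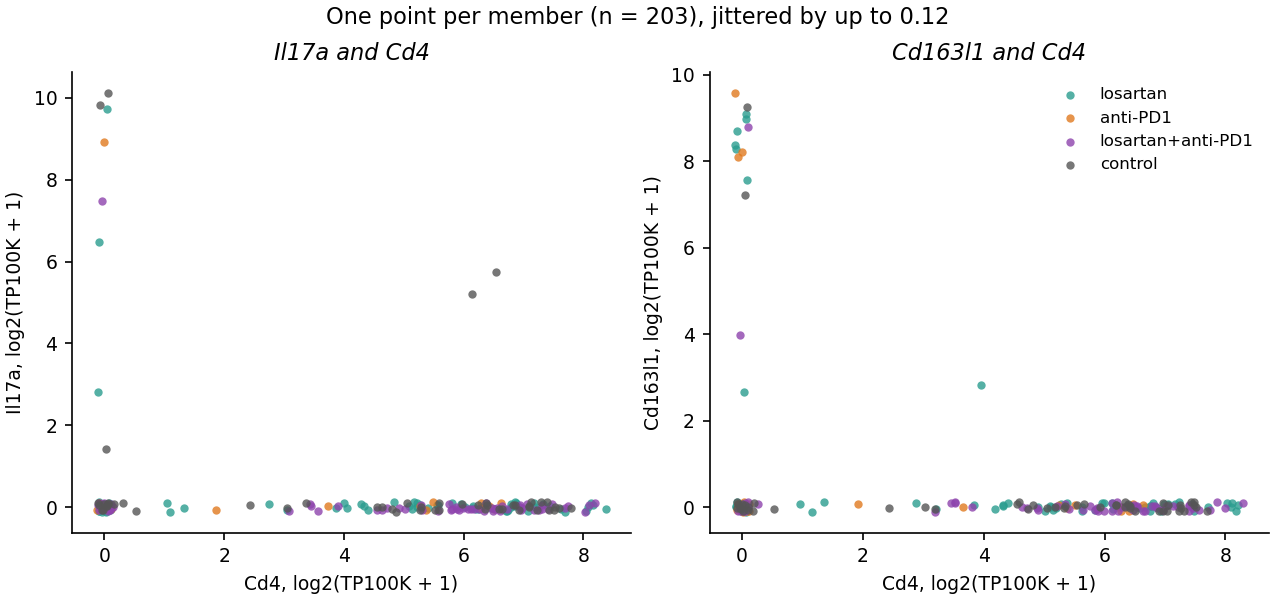
Level of Il17a and of Cd163l1 against that of Cd4 in each member, as log2(TP100K + 1), points shifted by up to 0.12 so that zeros show. The 13 members with Cd163l1 above 10 TP100K all lie at 0 on the Cd4 axis, and 7 of 10 with Il17a have no coreceptor gene.

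RNA of other cell types was low but varied between plates. All 8 macrophage and microglia markers were seen somewhere in the members, in 38 cells, with mean summed levels of 30.96 TP100K under losartan, 43 under anti-PD1, 3.34 under losartan+anti-PD1 and 39.3 in control, against 18.2 in cluster 4. Of 4 B cell markers 3 were seen, with a summed level of 1.87, and of 5 NK cell markers 4 were seen, with a summed level of 14.1. Endothelial markers summed to 2.55 and glial markers to 1.56. Apoe, an abundant macrophage transcript, averaged 15.8 TP100K in members under losartan, 197.4 under anti-PD1, 6.31 under losartan+anti-PD1 and 25.1 in control. The part of such RNA in the treatment contrasts was not tested.

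Each treatment plate was then compared with the control plate. The 3 comparisons share that plate, which holds 51 members, and so are not independent. A gene seen in few cells of one side again passed the filter only through the other side, so it had to differ. Under losartan, 4.63% of 3394 genes were at least 2-fold higher and 4.71% at least 2-fold lower. Under anti-PD1, with 20 cells, 13.3% of 3831 were higher and 14.1% lower, and under losartan+anti-PD1 6.14% of 4020 were higher and 3.71% lower. Higher genes were 49.5% of those past 2-fold under losartan, 48.6% under anti-PD1 and 62.4% under losartan+anti-PD1, and 21.9%, 27% and 78.8% with 75th-percentile scaling, so the balance of directions depends on scaling. That scaling put the all-gene median at -0.19, -0.22 and 0.19 on those plates, against -0.01, 0.03 and 0.04.

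Losartan+anti-PD1 members carried more chemokine and type 1 effector RNA than control members. Ccl4 averaged 791 TP100K under losartan+anti-PD1 (33 of 63 cells, 52.4%, 39.4 to 65.1) and 154.96 in control (15 of 51, 29.4%, 17.5 to 43.8). Tbx21 averaged 12.3 TP100K under losartan+anti-PD1 (32 of 63, 50.8%, 37.9 to 63.6) and 2.38 in control (7 of 51, 13.7%, 5.70 to 26.3). Nkg7 was present in 54 of 63 cells under losartan+anti-PD1 (85.7%, 74.6 to 93.3) and 27 of 51 in control (52.9%, 38.5 to 67.1). All 3 shares were higher under losartan+anti-PD1, each set by the cells of 1 plate per treatment. Serpinb9, which shields cells from their own granzyme B, averaged 27.2 TP100K under losartan+anti-PD1 and 6.05 in control, and perforin (Prf1) 54.1 under losartan+anti-PD1 and 20.7 in control. Tumour necrosis factor (Tnf) averaged 25.3 TP100K under losartan+anti-PD1 and 4.92 in control, and the apoptosis effector Perp 8.68 and 0.513 (log2 ratio 2.68). All 6 Th1 genes were higher under losartan+anti-PD1, 3 at least 2-fold, with a median of 1.19, and 10 of 12 cytotoxic genes were higher, 5 at least 2-fold, with a median of 0.89, beside 0.04 over all genes. Both Ccl3 and Ccl4 were present in 28 of 63 members (44.4%, 31.9 to 57.5) under losartan+anti-PD1, against 9 of 51 (17.6%, 8.40 to 30.9) in control.

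The CD4 class alone had the same directions. In it, Tbx21 was present in 19 of 37 cells under losartan+anti-PD1 and 2 of 19 in control, Nkg7 averaged 658 TP100K under losartan+anti-PD1 and 162.5 in control, and Ccl4 963 under losartan+anti-PD1 and 252.3 in control. The list medians in that class were 0.68 for 7 Th1 genes, all higher, and 1.72 for 9 cytotoxic genes, 8 of them higher. The members under losartan+anti-PD1 had a median of 2363 detected genes and those in control 2167, which also bears on shares of cells. In the CD4 class the medians were 2363 under losartan+anti-PD1 and 1946 in control, a wider gap. The 20 control members with both coreceptors, which that class leaves out, had a median of 2690.5. The part of these differences in the CD4-class values was not tested. Over cells with 1500 to 4000 detected genes, the higher share of genes past 2-fold was 49.8% under losartan+anti-PD1. The immediate early and heat shock genes were also higher under losartan+anti-PD1, for 14 of 15, 5 at least 2-fold, with a median of 0.75 in members and 1.46 in the CD4 class. Cluster 4 moved with them, with a median of 1.10 under losartan+anti-PD1 and 1.19 under anti-PD1, and the part of this response in the treatment contrasts was not tested.

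Anti-PD1 members had less chemokine, cytotoxic and inhibitory receptor RNA than control members. Th1 and cytokine genes were mostly higher, but Ifng was lower. Ccl3 averaged 0.0455 TP100K under anti-PD1 (1 of 20 cells) and 100.8 in control (13 of 51), a log2 ratio of -6.61, and Ccl4 21.7 under anti-PD1 and 154.96 in control. Of 9 cytotoxic genes 8 were lower, all 8 at least 2-fold, with a median of -2.60, and all 6 inhibitory receptor genes were lower, with a median of -1.80. In the 8 CD4-class cells the medians were -1.26 for 6 cytotoxic genes and -1.68 for 7 inhibitory receptor genes. Of 5 Th1 genes 3 were higher under anti-PD1, 2 at least 2-fold and 1 at least 2-fold lower, with a median of 0.996 (1.43 in the CD4 class), and of 4 cytokine genes 3 were higher, with a median of 1.56. Ifng had a log2 ratio of -1.48. It was -4.03 over cells with 1500 to 4000 detected genes, and 0.046 without members holding 2 or more of Il2ra, Ctla4 and Ikzf2. Tnfrsf9 averaged 1.24 TP100K under anti-PD1 and 29.4 in control, and Lag3 21.4 under anti-PD1 and 99.6 in control. Prf1 was present in 0 of 20 anti-PD1 members, which allows a share of up to 15%, against 14 of 51 in control. Resting genes ran the other way: Tcf7 was present in 13 of 20 members under anti-PD1 (65%) and 14 of 51 in control (27.5%), and 10 of 11 naive and memory genes were higher, with a median of 0.77. Ltb averaged 183.6 TP100K under anti-PD1 and 37.5 in control, and the immediate early genes were higher for 13 of 14, with a median of 1.02 and Fos at 482 TP100K under anti-PD1 and 187.1 in control.

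Losartan members had no common direction in cytotoxic genes. Of 10 cytotoxic genes 5 were higher and 5 lower, with a median of 0.01, and Nkg7 averaged 264.5 TP100K under losartan and 270.3 in control. Ltb averaged 95.3 TP100K under losartan and 37.5 in control (1.32), Il7r 51.2 under losartan and 20.97 in control, and Tcf7 26.2 under losartan and 12.2 in control (1.04). All 14 immediate early genes were higher under losartan, with a median of 0.63. The lowest gene was Cd8b1, at 0.138 TP100K under losartan and 19.7 in control.

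**Figure D5:**
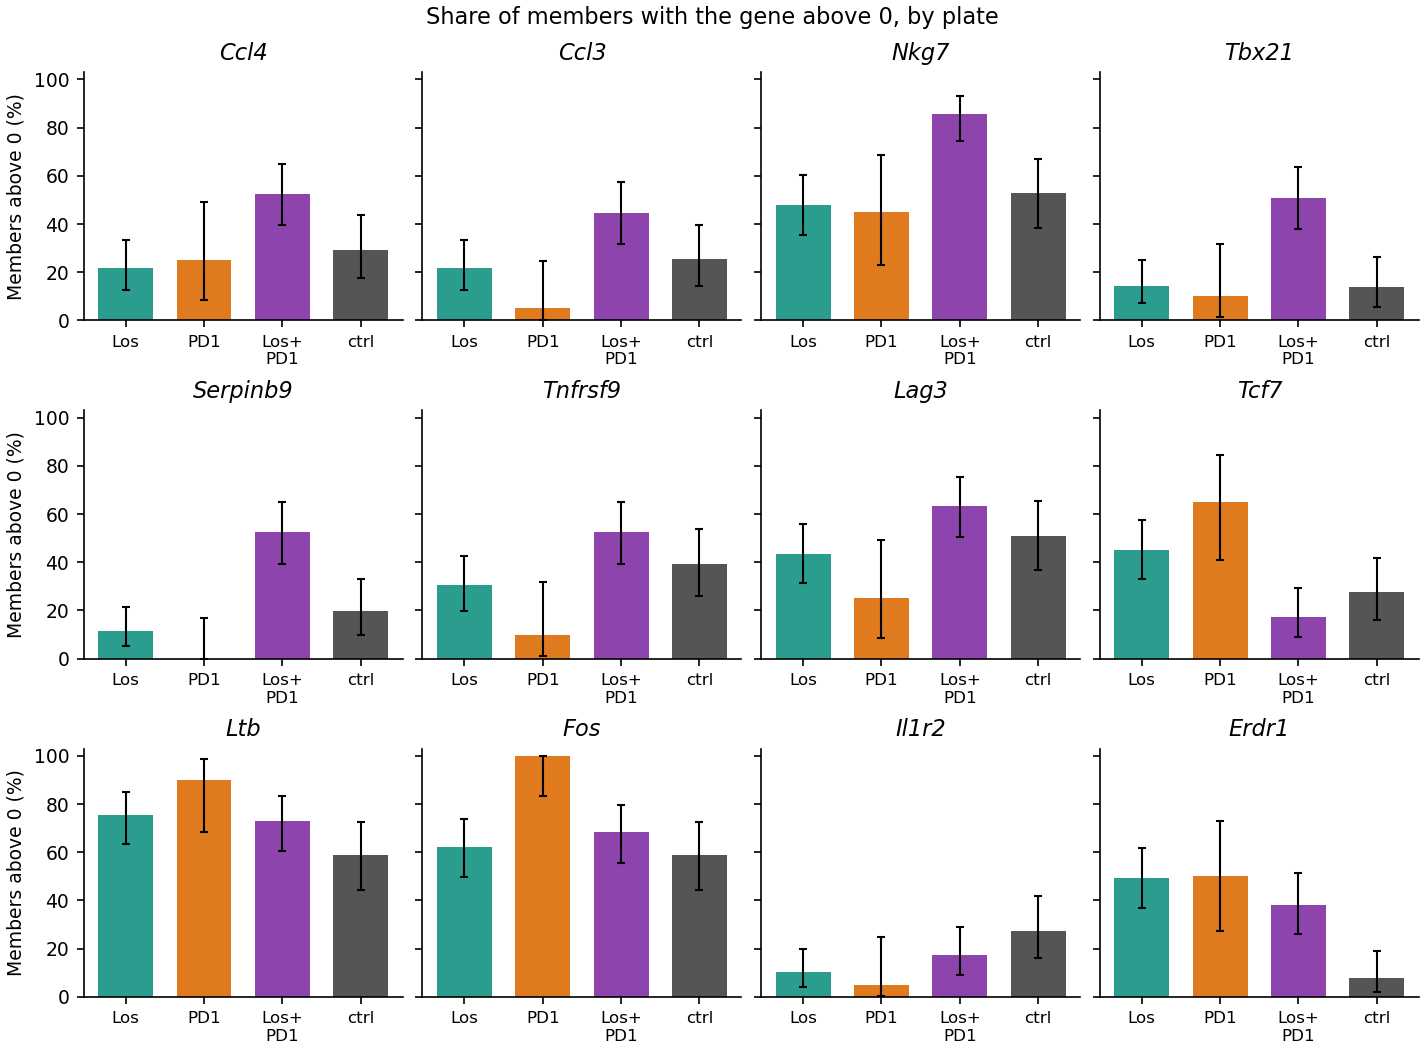
Share of members above 0 (percent, with exact 95% intervals) for 12 genes on the 4 plates, in the order losartan, anti-PD1, losartan+anti-PD1 and control. Tbx21 reached 50.8% under losartan+anti-PD1, against 13.7% in control, and Tcf7 reached 65% under anti-PD1, against 27.5% in control.

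A few genes set the control plate apart from the other 3. Erdr1, a gene near the end of the X and Y chromosomes, was present in 34 of 69 members under losartan, 10 of 20 under anti-PD1, 24 of 63 under losartan+anti-PD1 and 4 of 51 in control. Its log2 ratios were 3.09, 3.69 and 2.32, and control was also lowest in cluster 4, with 24 of 56 under anti-PD1, 6 of 12 under losartan+anti-PD1 and 3 of 20 in control. Il18r1, a receptor chain for interleukin 18, averaged 14.5, 14.2 and 8.10 TP100K on the losartan, anti-PD1 and losartan+anti-PD1 plates, against 2.48 in control. Il1r2 ran the other way, with 4.11, 3.60 and 9.99 TP100K on the treated plates, against 32.5 in control. Casp1, the protease that matures interleukins 1 beta and 18, also did so, with 3.12, 3.49 and 9.13 TP100K, against 19.1 in control. Since the control plate enters each of these comparisons, 1 plate decides all of them.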

How the data were processed

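The authors aligned Smart-seq2 reads and deposited TPM per cell and gene, with cell labels and clusters. The submitters' processing notes name TopHat, Bowtie, RSEM 1.2.8 and mm10. The table held 21765 genes, and each cell summed to 1000000 TPM. Cells were scaled to 100000, since TPM is not a count and keeps no depth. Members, lists and comparisons were chosen with earlier results of these data known. Log2 ratios are of mean TP100K plus a pseudocount of 1, over genes whose share of positive cells reached 25% on either side. The members were 203 cells, 105 of them in the CD4 class and 22 in the CD8 class. Named genes were those of 25 lists, Gzmb, and the 10 highest and 10 lowest ratios per comparison with the same direction on each plate with 5 or more cells in each group. A few more were named after their values were seen (Il17a, Cd163l1, Blk, Erdr1 and others named only for level or share). Values came from Python 3.11.15, pandas 2.3.3, NumPy 2.4.6 and SciPy 1.17.1, with intervals by Clopper-Pearson at 95%, and figures from matplotlib 3.10.9. The comparison was tested on real member cells that were split at random, with known changes put into some genes. Gene positions came from a GENCODE annotation of GRCm38. Alternatives were other pseudocounts, no filter, 75th-percentile scaling, cells with 1500 to 4000 detected genes, other class rules and leaving out each plate. Some genes are not reported here. No doublet caller was run. Singlets had been gated at the sort.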

Additional observations from a re-analysis of the deposited data

Results flagged for a closer look

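For 54 pairs of a gene list and a treatment, the members' median log2 ratio to control was set beside that of cluster 4 or Foxp3-positive T cells, and 4 pairs had medians of opposite sign that were each at least 0.5 in size. Pairs of opposite sign with a smaller median on either side were not counted, such as the inhibitory receptor list under anti-PD1, with -1.80 in members and 0.37 in cluster 4. These differences were not tested, each rests on 1 plate per treatment, and all share the control plate. Under anti-PD1, the regulatory T cell list had a median of -0.83 in members and 0.61 in cluster 4. Under anti-PD1, the cytotoxic effector list had a median of -2.60 in members and 0.53 in cluster 4. Under anti-PD1, the interferon-induced list had a median of -0.56 in members and 0.55 in Foxp3-positive cells, but the members' median was 0.11 over cells with 1500 to 4000 detected genes. Under losartan+anti-PD1, the Th1 list had a median of 1.19 in members and -0.65 in Foxp3-positive cells. The Foxp3-positive cells were only 12 under anti-PD1, 9 under losartan+anti-PD1 and 8 in control. The filter was applied within each group, so paired medians rest on different genes. In the order above, they rest on 10 genes in members and 6 in the other cells, 9 and 15, 16 and 23, and 6 and 7.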

How the results depend on the processing

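No test was run, paired or not, since the labels give no replicate numbers or animals. Ratios within a plate were given only where each group had 5 or more cells on it. The genes past 2-fold were 7.57% of those compared against cluster 4, 17% against Foxp3-positive cells, 27% between the classes, 9.34% under losartan, 27.4% under anti-PD1 and 9.85% under losartan+anti-PD1. A pseudocount of 0.1 gave 14.2% against cluster 4, 25.5% against Foxp3-positive cells, 16.1% under losartan and 18.5% under losartan+anti-PD1. A pseudocount of 10 gave 1.84%, 2.78%, 5.17%, 0.324%, 3.78% and 0.622% in the order of the first list. With no filter 949, 2213, 3176, 1716, 3384 and 1590 genes were past 2-fold, from many more compared. In the CD4 class alone the shares were 23% under losartan, 41.7% under anti-PD1 and 23.3% under losartan+anti-PD1. Without members holding 2 or more of Il2ra, Ctla4 and Ikzf2 they were 19% under losartan and 21% under losartan+anti-PD1, and without members holding a macrophage or B cell marker 14.9% under losartan+anti-PD1. Leaving out each plate in turn gave 9.28% to 14.5% against cluster 4, with 14.5% without the anti-PD1 plate, 17.5% to 21.9% against Foxp3-positive cells and 29.7% to 33.8% between the classes. The CD4 class was 65% of members above 1 TP100K, and the CD8 class 32% whatever the Cd4 value. Ratios between classes drawn above 1 TP100K, an alternative chosen after seeing the data, had 27% of genes past 2-fold.

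Some list medians and genes reversed, and the cause was not tested. Against cluster 4 the chemokine receptor list had a median of -0.83, but 0.77 with no filter and -0.98 to 0.15 on leaving out plates, positive without the anti-PD1 plate. Cxcr6 had a log2 ratio of -1.20, and -1.40 to 0.73, again positive without that plate. Against Foxp3-positive cells the cytokine ligand list had 0.61, but -0.11 in cells with 1500 to 4000 genes, and the cytotoxic list 1.15, and -0.081 to 1.28, negative without the losartan+anti-PD1 plate. Under anti-PD1 the interferon-induced list had -0.56, but 0.11 in cells with 1500 to 4000 genes, and Ifng -1.48, but 0.046 without members holding 2 or more of the regulatory genes. Of 833 list medians under alternatives 721 moved by under 0.5 and 5 reversed, and of 1117 gene values 953 moved by less than the spread over plates, or by less than 1 (log2) where there was no such spread, and 2 reversed. A reversal was a change of sign from a main value of at least 0.5 in size for a list or 1 for a gene. Sign changes of smaller values were not counted as reversed.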

Other observations

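Y-linked genes above 1 TP100K were seen in 52.2% of members under losartan, 55% under anti-PD1, 52.4% under losartan+anti-PD1 and 47.1% in control, and Xist above 1 in 0 members.

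Interferon-induced genes, products of antiviral signalling, were lower in members than in Foxp3-positive cells for 19 of 20, 10 of them at least 2-fold, with a median log2 ratio of -1.02, beside 9.31% of all genes at least 2-fold lower and a median of -0.03. They were also lower in members than in cluster 4 for 16 of 20, 4 of them at least 2-fold, with a median of -0.37, beside 2.71% and 0.09 over all genes. Between the classes, 14 of 20 were lower in the CD4 class, 7 at least 2-fold, with a median of -0.41, beside 8.95% and 0.11 over all genes. The contrast of interferon-induced genes with Foxp3-positive cells pooled the plates. Against control, the median of that list in Foxp3-positive cells was 0.55 under anti-PD1 and 0.99 under losartan+anti-PD1. In members it was -0.56 and -0.14. Whether the gap was alike on each plate was not tested. Chemokine receptor genes were lower in members than in Foxp3-positive cells for 4 of 5, all 4 at least 2-fold, with a median of -1.41.

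A share of 22.2% of the members (45 cells) held a macrophage or B cell marker, 14 under losartan, 5 under anti-PD1, 15 under losartan+anti-PD1 and 11 in control.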
